A study of Rattus norvegicus with 6 samples.

Results

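Growth factors of the fibroblast growth factor (FGF) and epidermal growth factor (EGF) families and their receptors were examined in nuclei of the rat brain 48 h after permanent occlusion of the middle cerebral artery (MCAO) or a sham operation. The members were 4 ligands (*Fgf1*, *Fgf2*, *Hbegf* and *Tgfa*) and 4 receptors (*Fgfr1*, *Fgfr2*, *Fgfr3* and *Egfr*), picked by symbol for their place in these pathways, and all 8 were found among the 30560 genes of the count tables. The choice was made with earlier results of these data known, so that calls of members are not independent of those results. All rats were wild-type males of 12 weeks. The Sham group consisted of the left hemispheres (Sham L) and the right hemispheres (Sham R) of the same 4 rats, pooled into 1 library each. The MCAO contra group consisted of the hemispheres opposite the lesion, pooled from 3 rats with moderate infarction (mMCAO contra) and from 4 rats with severe infarction (sMCAO contra), and the MCAO ipsi group of the lesioned hemispheres of those same rats (mMCAO ipsi and sMCAO ipsi). There were thus 6 libraries of 11 rats and 2 libraries per group, and the libraries of a group are either hemispheres of the same animals or infarctions of unequal size, so that p-values measure the spread between these libraries and not between animals.

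FGF1 and FGF2 are secreted growth factors that bind heparan sulphate and act through the receptor tyrosine kinases encoded by *Fgfr1*, *Fgfr2* and *Fgfr3*. HB-EGF and TGF-alpha are made as membrane-bound precursors, are released by metalloproteases and bind the EGF receptor. Both receptor families feed the Ras-MAPK cascade, which acts on proliferation, survival and differentiation. In the brain, FGF2 and EGF receptor ligands are known as mitogens of neural progenitors and oligodendrocyte precursor cells (OPCs) and as factors to which astrocytes respond after injury, and FGF receptors take part in myelin growth.

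The promoters of 3 members are shown because those members were called higher in astrocyte-like nuclei of MCAO ipsi than of Sham (rule and values follow). Against MCAO contra *Hbegf* and *Fgf2* were called and *Egfr* was not, and a shared regulation of the 3 was not tested. They are the 250 bases before the annotated gene start in RefSeq (assembly GRCr8, which is not the assembly of the count tables), written along the sense strand, with matches to 5 searched motifs in capitals.
*Hbegf*, chr18:28390221-28390470, minus strand: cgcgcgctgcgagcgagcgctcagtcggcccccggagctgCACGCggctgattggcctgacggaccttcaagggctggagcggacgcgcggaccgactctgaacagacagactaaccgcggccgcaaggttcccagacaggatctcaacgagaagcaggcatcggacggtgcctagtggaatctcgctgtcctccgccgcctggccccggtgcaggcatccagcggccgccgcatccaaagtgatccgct
*Fgf2*, chr2:122164204-122164453, plus strand: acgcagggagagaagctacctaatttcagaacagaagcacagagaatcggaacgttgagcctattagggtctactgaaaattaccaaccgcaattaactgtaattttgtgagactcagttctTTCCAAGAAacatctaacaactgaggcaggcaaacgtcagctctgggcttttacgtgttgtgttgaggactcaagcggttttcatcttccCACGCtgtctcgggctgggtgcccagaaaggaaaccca
*Egfr*, chr14:95378376-95378625, plus strand: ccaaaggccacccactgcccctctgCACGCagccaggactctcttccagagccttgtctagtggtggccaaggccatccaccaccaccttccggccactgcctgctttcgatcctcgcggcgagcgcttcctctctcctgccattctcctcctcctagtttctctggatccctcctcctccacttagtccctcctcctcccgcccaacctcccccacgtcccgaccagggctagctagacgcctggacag
The motifs, searched on both strands, were AP-1 (TGANTCA), an ETS-like core (CAGGAAG), STAT (TTCNNNGAA), EGR (GCGGGGGCG) and the GCGTG form of the hypoxia response core. No other form of that core was searched or marked, ACGTG among them. All 3 of these promoters held the GCGTG form on the reverse strand (CACGC), 210 bases before the start in *Hbegf*, 38 in *Fgf2* and 225 in *Egfr*, and 27.2% of the 27457 rat promoters of this length held it on either strand. The promoters of *Fgfr2* and *Fgfr3*, which were not called in astrocyte-like nuclei, held it too, so that it was present in 5 of 7 members. The *Fgf2* promoter also held a STAT match (TTCCAAGAA) 128 bases before the start, a motif found in 7.52% of promoters. RefSeq promoters were at hand for 7 of the 8 members, all but *Fgfr1*, and none of the 7 held the AP-1 motif, which 6.36% of promoters held. The ETS-like core (10.2% of promoters) and the EGR motif (2.49%) were absent from the 3 shown, and no matches in them overlapped.

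The 6 libraries held 8774 nuclei (sMCAO ipsi) to 14508 nuclei (mMCAO contra), 33012945 to 52513380 unique molecular identifiers (UMIs, each a counted transcript molecule) and a median of 2059 to 3360 UMIs per nucleus. Nuclei were put into 10 classes by the share of their UMIs in lists of cell type markers, and a class is written "-like" since no cell type annotation was used. Between 57.4% and 74.7% of nuclei met the markers of 1 class, and 2.64% to 4.06%, which met those of a pair of classes, were left out. Barcodes shared by a pair of libraries numbered 118 to 281. Levels are UMIs per 1000000 UMIs of a class in a library (CPM). Where values of a group are given as a pair, Sham L stands before Sham R and moderate before severe infarction. RNA of neurons that lies free in the suspension also enters the droplets of other nuclei. Estimated from pan-neuronal genes, it made up 35.3% and 29.98% of the UMIs of astrocyte-like nuclei in Sham, 17.0% and 21.0% in MCAO contra and 10.1% and 4.53% in MCAO ipsi, and the share in OPC-like and oligodendrocyte-like nuclei fell in the same order of groups. These UMIs count in the total of a class, so a larger share lowers the CPM of genes that free neuronal RNA holds little of.

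Each member had its highest mean level in a glial or vascular class, apart from *Fgf1*, among the 7 classes with enough nuclei in all 6 libraries. *Fgf2* (mean over 6 libraries 114 CPM), *Fgfr1* (124 CPM), *Fgfr3* (89.0 CPM) and *Egfr* (245 CPM) were highest in astrocyte-like nuclei. *Fgfr2* was highest in oligodendrocyte-like nuclei (797 CPM), followed by astrocyte-like nuclei (291 CPM). *Tgfa* was highest in OPC-like nuclei (135 CPM), followed by vascular-like (65.1 CPM) and oligodendrocyte-like nuclei (43.7 CPM). *Hbegf* lay at 38.6 CPM in vascular-like and 29.8 CPM in astrocyte-like nuclei, means that hide a wide spread over libraries in the second of these classes. *Fgf1* was low in each of the 7 classes, from 1.80 CPM in medium spiny neuron-like to 8.13 CPM in other GABAergic neuron-like nuclei, an order in which no neighbours stood apart in all 6 libraries.

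Neighbouring classes in each member's order were compared with an exact two-sided sign-flip permutation test over the 6 libraries, whose smallest possible p is 0.031. Of the 48 pairs of neighbours, 9 reached that p, which means that the first class was higher in 6 of 6 libraries, and none of the 48 held after Benjamini-Hochberg adjustment (smallest adjusted p = 0.167). The 9 pairs were astrocyte-like above OPC-like nuclei for *Fgf2*, *Fgfr1* and *Fgfr3*, oligodendrocyte-like above astrocyte-like and astrocyte-like above other GABAergic neuron-like nuclei for *Fgfr2*, astrocyte-like above other GABAergic and other GABAergic above OPC-like nuclei for *Egfr*, other GABAergic above glutamatergic neuron-like nuclei for *Fgfr1*, and oligodendrocyte-like above medium spiny neuron-like nuclei for *Tgfa*. For *Hbegf*, vascular-like nuclei were above astrocyte-like nuclei in 4 of 6 libraries (p = 0.1875, exact sign-flip permutation test), and not in Sham R, where neither class had a UMI, or in sMCAO ipsi (25.5 CPM against 119 CPM).

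**Figure D1:**
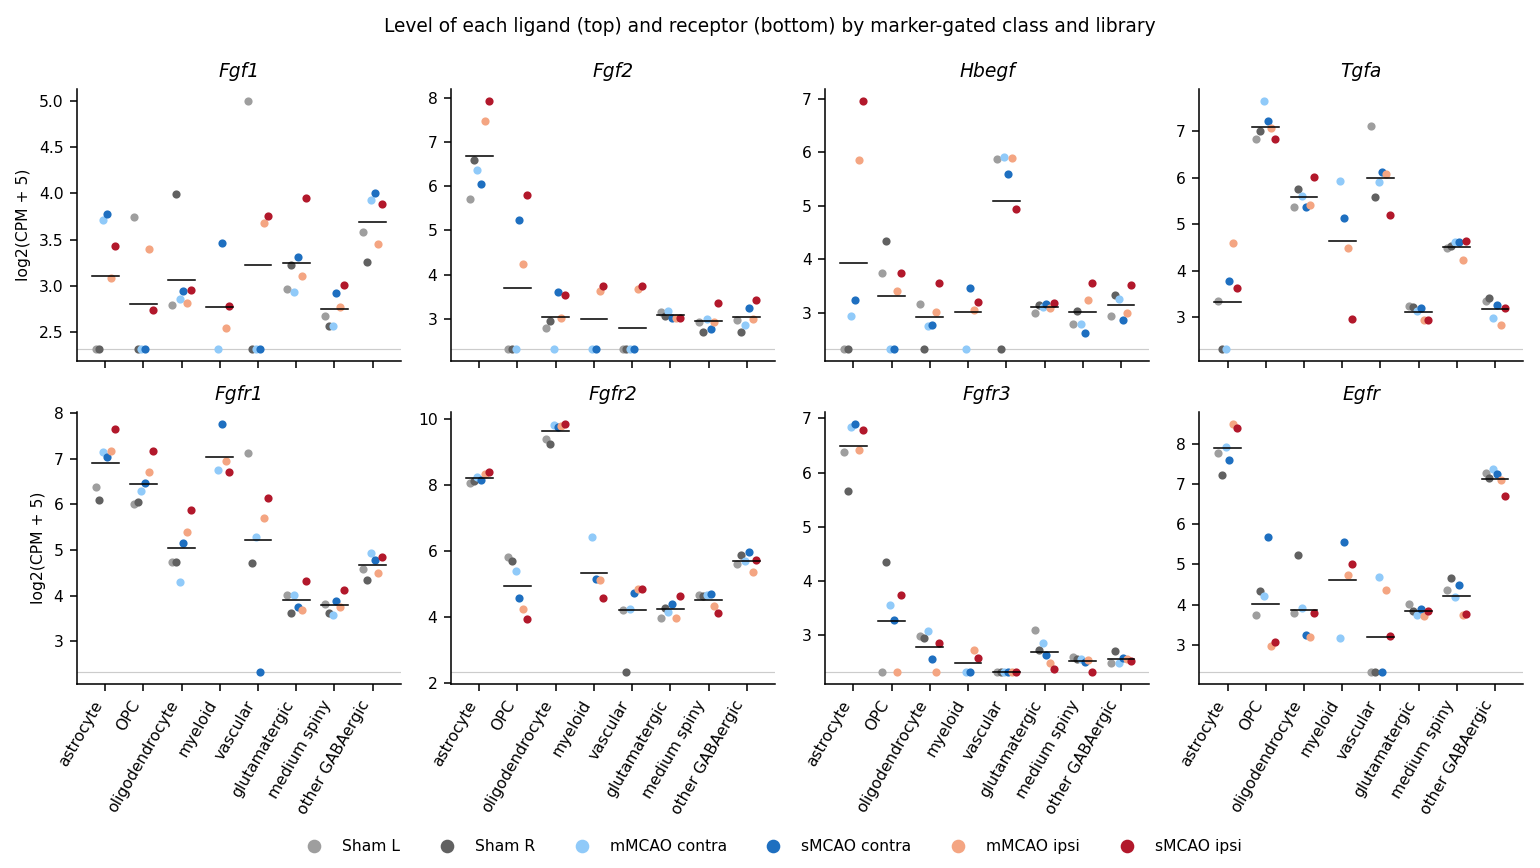
Level of each of the 4 ligands (top) and 4 receptors (bottom) as log2(CPM + 5), with 1 point per library and the mean of the libraries as a black bar, in the 7 tested classes and in myeloid-like nuclei of the 4 MCAO libraries. The grey line marks 0 UMIs. Points of *Fgfr2* in oligodendrocyte-like nuclei lie together at the top, whereas *Hbegf* in astrocyte-like nuclei runs from 0 UMIs in both Sham libraries to 119 CPM in sMCAO ipsi.

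The cells that held most transcripts of a ligand differed between hemispheres, as seen from the share of a member's UMIs in each class. The share depends on the number of nuclei and their depth as well as on the level per nucleus, and its interval (95%, Clopper-Pearson) covers counting error only. Of the *Hbegf* UMIs in classified nuclei, astrocyte-like nuclei held 0 of 82 in Sham L, 0 of 78 in Sham R, 0.781% of 128 in mMCAO contra, 1.41% of 71 in sMCAO contra, 20.5% of 146 in mMCAO ipsi (14.3% to 28.0%) and 52.0% of 277 in sMCAO ipsi (45.9% to 58.0%). Glutamatergic neuron-like nuclei, with 1113 to 4159 nuclei per library, held 63.3% to 74.6% of *Hbegf* UMIs in the Sham and contra libraries, but 50% and 14.8% in MCAO ipsi. Astrocyte-like nuclei thus became the class with most *Hbegf* UMIs in sMCAO ipsi, where glutamatergic neuron-like nuclei numbered 1113 against 3957 in mMCAO ipsi.

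The same shift was seen for *Fgf2*. Astrocyte-like nuclei held 8.41% and 15.4% of its UMIs in Sham, 19.2% and 14.9% in MCAO contra, 48.3% in mMCAO ipsi (41.2% to 55.4%) and 66.3% in sMCAO ipsi (61.6% to 70.7%). Among the receptors, other GABAergic neuron-like nuclei held the largest share of *Egfr* UMIs in every library except sMCAO ipsi, at 59.9% and 50.6% in Sham, 65.8% and 59.2% in MCAO contra, and 48.8% with moderate and 33.6% with severe infarction in MCAO ipsi. In sMCAO ipsi astrocyte-like nuclei held 35.6%. This share of *Egfr* depends on where the class ends, since a stricter gate left 26.8% in Sham L. Oligodendrocyte-like nuclei held most *Fgfr2* UMIs in each of the 6 libraries, 33.7% in Sham R and 56.8% to 66.1% in the other 5.

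In MCAO ipsi, *Fgfr3* UMIs were gathered in astrocyte-like nuclei, whereas those of *Fgfr1* were spread over several classes. The astrocyte-like share of *Fgfr3* was 16.9% and 13.9% in Sham, 36.9% and 52.0% in MCAO contra, and 68.7% and 84.2% in MCAO ipsi, and *Fgfr1* was divided among astrocyte-like (22.2%), myeloid-like (19.6%) and glutamatergic neuron-like nuclei (14.2%) in sMCAO ipsi. The largest share of *Fgf1* UMIs was in glutamatergic neuron-like nuclei (39.8% in sMCAO ipsi to 74.7% in Sham R), but fibroblast-like nuclei held 29.3% of them in sMCAO ipsi (23.9% to 35.2%). *Tgfa* UMIs were spread over several classes, and medium spiny neuron-like nuclei held the most in the pooled Sham and pooled MCAO contra libraries. Medium spiny neuron-like nuclei held 38.1% and 50% of its UMIs in Sham and 21.8% and 21.0% in MCAO ipsi, and OPC-like nuclei 5.00% and 4.08% in Sham and 19.3% and 21.0% in MCAO ipsi.

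**Figure D2:**
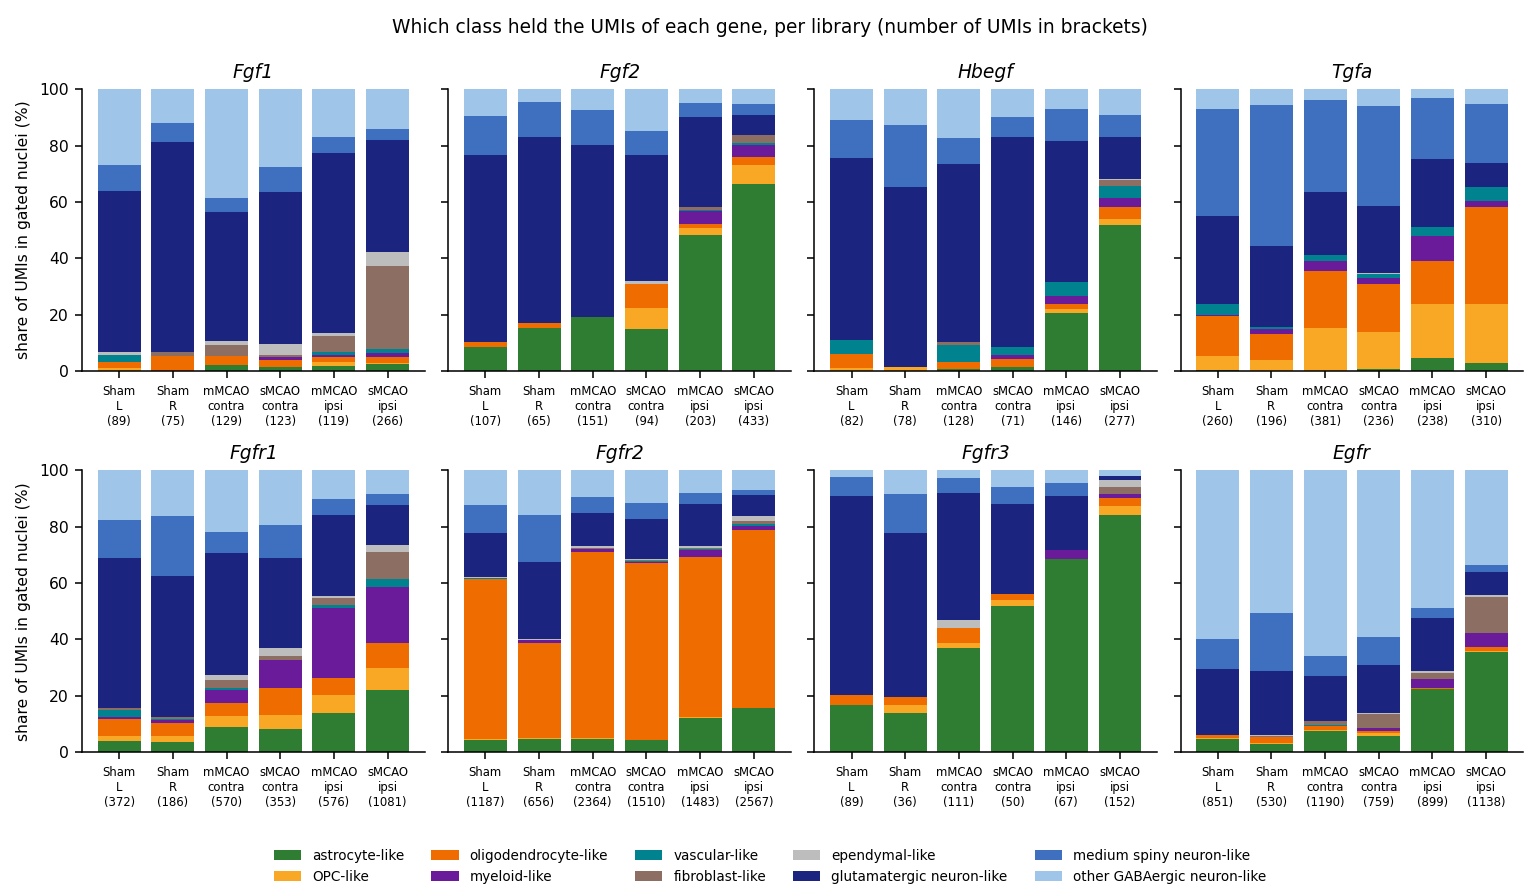
Share (%) of the UMIs of each member found in each of the 10 classes, as 1 stacked bar per library that adds up to 100% of the UMIs in classified nuclei, with their number in brackets. The astrocyte-like part (green) of *Hbegf* and *Fgf2* is small in the Sham and contra libraries and reaches 52.0% and 66.3% in sMCAO ipsi, and the oligodendrocyte-like part (orange) fills most of *Fgfr2*.

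Astrocyte-like nuclei, which numbered 169 to 445 per library, carried 2 ligands and 2 receptors at higher levels in MCAO ipsi than in Sham. *Hbegf* went from no UMI at all in Sham to over 50 CPM, or to 37.0 and 61.6 CPM under a stricter gate. *Fgf2* rose by 1.66 on the log2 scale, and *Fgfr1* and *Egfr* rose less, whereas *Fgfr2* and *Fgfr3* did not pass the test. Levels were compared with edgeR's quasi-likelihood test on UMIs summed per library, with Benjamini-Hochberg adjustment over all genes, and a call required an adjusted p under 0.05 and a log2 fold change of 0.6 or more in either direction. Under this rule 4 of the 6 members tested in astrocyte-like nuclei were called, beside 16% of the 6257 genes tested. *Fgf1* and *Tgfa*, with at most 7 and 11 UMIs per library, were too low to be tested, and *Hbegf* was tested only because of its UMIs in MCAO ipsi.

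*Hbegf*, which encodes the ligand HB-EGF, had 0 and 0 UMIs in the Sham libraries, 1 and 1 in MCAO contra, and 30 and 144 in MCAO ipsi. These counts correspond to 0, 0, 2.69, 4.37, 52.7 and 119 CPM, so that both MCAO ipsi libraries stood above the other 4. The level depended on the gate. Under the stricter gate MCAO ipsi had 349 and 393 astrocyte-like nuclei instead of 393 and 445. *Hbegf* then lay at 37.0 and 61.6 CPM there, on 18 and 66 UMIs, against 0 and 0 CPM in Sham and 3.07 and 4.77 CPM in MCAO contra. Against the limit that no count in Sham allows (3 UMIs over the group), the level in MCAO ipsi was at least 9.83-fold higher, and without sMCAO ipsi at least 5.30-fold. The fitted log2 fold change against Sham was 8.33 ± 1.51 (SE, n = 2 against 2, edgeR adjusted p = 0.00334), a size that is poorly set because Sham had no UMI. *Hbegf* passed the filter on low counts only through MCAO ipsi, so neither this p-value nor that against MCAO contra is independent support. Against MCAO contra, with 2 UMIs in all, the ratio of pooled levels was 29.3 (95% Poisson interval 8.0 to 244), and the fitted log2 fold change was 4.62 ± 0.73 (SE, n = 2 against 2, edgeR adjusted p = 0.00156). Without Sham L the first call was lost (adjusted p = 0.0761), and without mMCAO contra the second (log2 fold change 4.24, adjusted p = 0.0566). A *Hbegf* UMI was found in 4.07% of astrocyte-like nuclei of mMCAO ipsi and 13% of those of sMCAO ipsi (median depth 1293 and 2315 UMIs), against 0.172% and 0.802% of oligodendrocyte-like nuclei of the same libraries. With each nucleus thinned to 500 UMIs the shares in astrocyte-like nuclei were 1.02% and 4.04%, and 0, 0, 0 and 0.437% in the Sham and contra libraries.

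*Fgf2*, the ligand of FGF receptors, was present in astrocyte-like nuclei of all 6 libraries. It lay at 47.0 and 90.7 CPM in Sham, 78.0 and 61.2 CPM in MCAO contra, and 172 and 237 CPM in MCAO ipsi. Both MCAO ipsi libraries were above the other 4, and the highest of those was Sham R, where the level rests on 10 UMIs. The log2 fold change was 1.66 ± 0.34 against Sham (SE, n = 2 against 2, edgeR adjusted p = 0.00577) and 1.52 ± 0.29 against MCAO contra (adjusted p = 0.00369). The first call was lost without Sham L (1.21, adjusted p = 0.168), and the second was kept in all 17 alternative analyses. Nuclei with a *Fgf2* UMI made up 3.59% and 5.33% in Sham, 7.83% and 6.11% in MCAO contra, and 19.1% and 36.6% in MCAO ipsi, or 2.69%, 3.55%, 3.61%, 3.49%, 8.14% and 9.21% after thinning.

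*Egfr*, which encodes the receptor of HB-EGF and TGF-alpha, lay in astrocyte-like nuclei at 214 and 145 CPM in Sham, 237 and 188 CPM in MCAO contra, and 353 and 334 CPM in MCAO ipsi. The MCAO ipsi libraries were again the highest of the 6. The log2 fold change was 0.86 ± 0.24 against Sham (SE, n = 2 against 2, edgeR adjusted p = 0.0257), and 0.66 ± 0.21 against MCAO contra, which missed the threshold (adjusted p = 0.0543). *Fgfr1* lay at 78.3 and 63.5 CPM in Sham, 137 and 127 CPM in MCAO contra, and 141 and 198 CPM in MCAO ipsi. Here both hemispheres of the MCAO rats were above Sham, and the log2 fold change of MCAO ipsi was 1.21 ± 0.31 against Sham (edgeR adjusted p = 0.0182) but 0.36 ± 0.24 against MCAO contra (adjusted p = 0.395). Neither call held under every alternative. DESeq2 called neither receptor (adjusted p = 0.168 for *Egfr* and 0.125 for *Fgfr1*), nor did edgeR with libraries thinned to equal UMIs (0.0558 and 0.0768). With the estimated free neuronal RNA subtracted, *Egfr* had a log2 fold change of 0.52 (adjusted p = 0.232) and *Fgfr1* of 0.85 (adjusted p = 0.117). Without Sham L the values were 1.27 (adjusted p = 0.0719) for *Egfr* and 1.45 (adjusted p = 0.131) for *Fgfr1*, without Sham R 0.59 (adjusted p = 0.242) and 1.04 (adjusted p = 0.127), and without sMCAO ipsi *Fgfr1* had 0.94 (adjusted p = 0.0759). RefSeq lists a pseudogene *Fgfr1-ps1*, with which reads of *Fgfr1* could be shared.

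*Fgfr2* and *Fgfr3* were expressed in astrocyte-like nuclei of each library without passing the test. *Fgfr2* ranged from 261 and 272 CPM in Sham over 293 and 275 CPM in MCAO contra to 313 and 330 CPM in MCAO ipsi (log2 fold change against Sham 0.25 ± 0.20, edgeR adjusted p = 0.46). *Fgfr3*, a receptor typical of astrocytes, had 78.3 and 45.4 CPM in Sham, 110 and 114 CPM in MCAO contra, and 80.9 and 106 CPM in MCAO ipsi (0.51 ± 0.34, adjusted p = 0.379). Against MCAO contra, 2 of the 6 tested members were called in astrocyte-like nuclei, the ligands *Hbegf* and *Fgf2*, beside 14.3% of all genes. Between MCAO contra and Sham none of the 6 was called, and 0% of all genes (edgeR, 391 genes and 1 member, *Fgfr1*, at an unadjusted p under 0.05, and 0 genes with DESeq2).

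**Figure D3:**
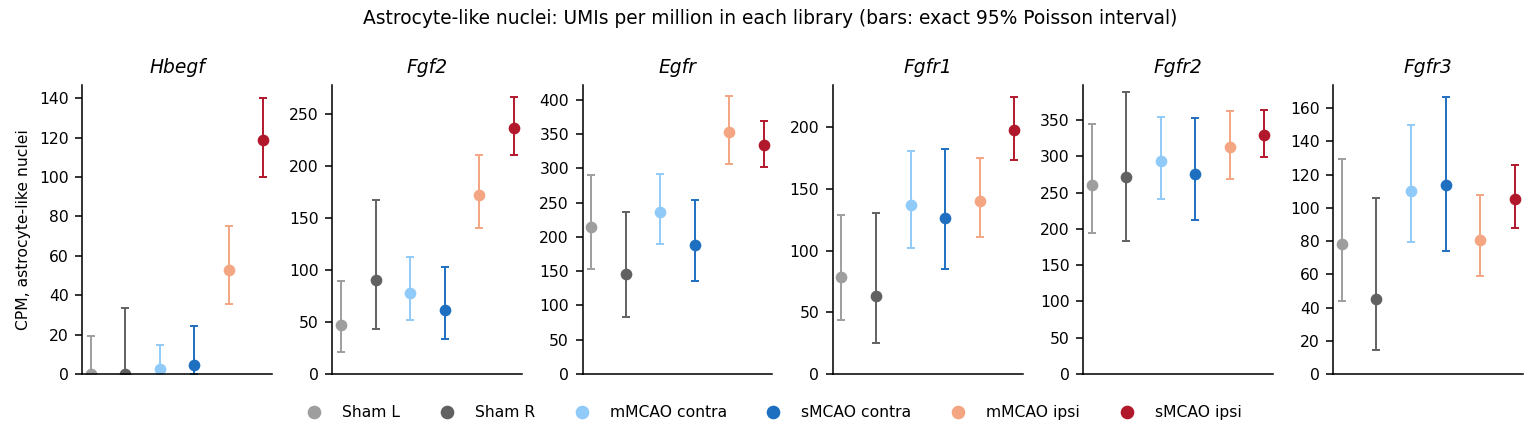
CPM of 6 members in astrocyte-like nuclei, with 1 point per library and bars for the exact 95% Poisson interval of the count, on axes that start at 0. Both MCAO ipsi libraries lie above the other 4 for *Hbegf*, *Fgf2* and *Egfr*. For *Fgfr1* the contralateral libraries (137 and 127 CPM) come close to mMCAO ipsi (141 CPM), and the points of *Fgfr2* overlap within their bars.

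Within the lesioned hemisphere, *Hbegf* was concentrated in reactive astrocyte-like nuclei, defined here by UMIs of at least 2 of the genes *Vim*, *Cd44*, *Osmr*, *Cp* and *Serpina3n*. There were 74 of them in mMCAO ipsi and 235 in sMCAO ipsi, against 0, 0, 0 and 6 in the Sham and contra libraries, so that no test between groups was possible inside the state. *Hbegf* lay at 157 CPM (95% Poisson interval 99.5 to 236) in the reactive nuclei of mMCAO ipsi and at 164 CPM (137 to 196) in those of sMCAO ipsi. In the other astrocyte-like nuclei it lay at 16.6 CPM (6.66 to 34.1) and 36.8 CPM (21.1 to 59.8). Moderate and severe infarction were thus close together within the reactive nuclei, and the reactive share of astrocyte-like nuclei was larger in sMCAO ipsi. *Fgf2* was higher in the reactive nuclei of sMCAO ipsi (285 CPM, 249 to 325) than in its other nuclei (150 CPM, 116 to 191), while the intervals overlapped in mMCAO ipsi (225 CPM, 155 to 316, against 154 CPM, 119 to 196). The receptors *Egfr*, *Fgfr1* and *Fgfr2* showed no such split. *Egfr* lay at 300 and 339 CPM in reactive and 372 and 325 CPM in other nuclei, *Fgfr1* at 171 and 203 CPM against 130 and 189 CPM, and *Fgfr2* at 321 and 351 CPM against 310 and 292 CPM. Reactive nuclei were deeper (median 1761 and 3139 UMIs) than the others (1223 and 1744.5 UMIs), and a deeper nucleus has more chances to show a reactive gene.

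**Figure D4:**
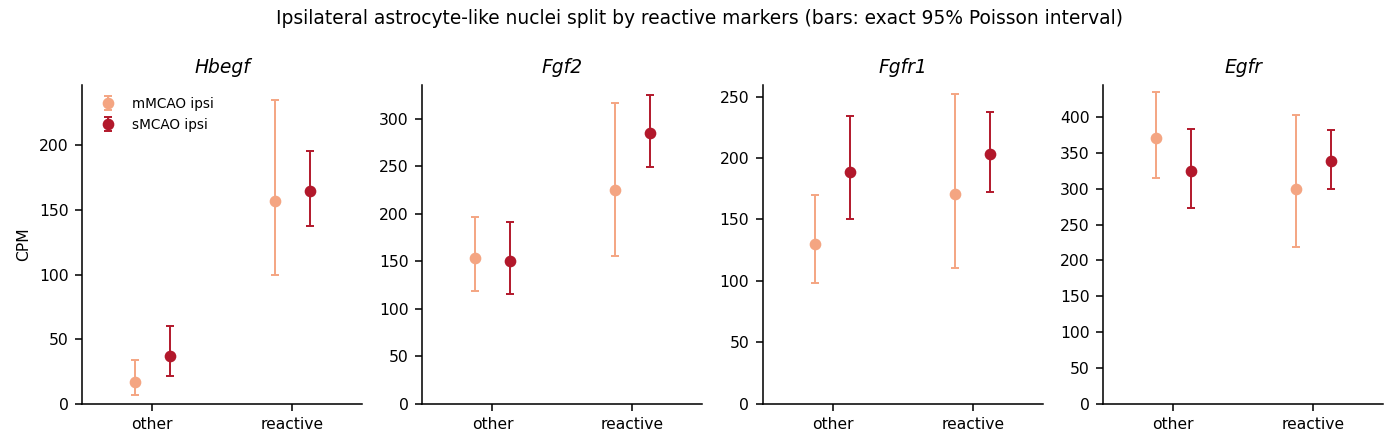
CPM of 4 members in astrocyte-like nuclei of mMCAO ipsi and sMCAO ipsi, split into nuclei with at least 2 reactive genes and the others, with exact 95% Poisson intervals as bars. *Hbegf* stands at 157 and 164 CPM in reactive nuclei against 16.6 and 36.8 CPM in the others, whereas the intervals of *Egfr* overlap.

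OPC-like nuclei, which numbered 88 to 331 per library, carried *Tgfa* and *Fgfr1* and had few UMIs of the other members. None of the 3 members tested was called in any comparison. Between MCAO ipsi and Sham 6.74% of the 5412 genes tested were called, and 7.87% between MCAO ipsi and MCAO contra. *Tgfa*, the TGF-alpha ligand gene, lay at 110 and 123 CPM in Sham, 194 and 144 CPM in MCAO contra, and 128 and 109 CPM in MCAO ipsi. Sham and MCAO ipsi overlapped (log2 fold change 0.01 ± 0.35, SE, n = 2 against 2, edgeR), whereas both MCAO contra libraries were above the other 4 (MCAO ipsi against MCAO contra -0.62 ± 0.24, edgeR adjusted p = 0.115). *Fgfr1* lay at 59.0 and 61.3 CPM in Sham, 73.8 and 83.8 CPM in MCAO contra, and 100.4 and 139 CPM in MCAO ipsi. These groups did not overlap, and the log2 fold change of 1.01 ± 0.41 missed the threshold (edgeR adjusted p = 0.166). *Fgfr2* ran the other way, from 50.6 and 46.0 CPM in Sham over 36.9 and 18.6 CPM in MCAO contra to 14.0 and 10.1 CPM in MCAO ipsi (-2.06 ± 0.79, adjusted p = 0.134), on 3 to 11 UMIs per library. At an unadjusted p under 0.05, *Fgfr1* and *Fgfr2* passed against Sham and *Tgfa* against MCAO contra, and DESeq2 called none of the 3. With nuclei of 2 classes assigned to the class of higher score, *Fgfr2* was called lower than in Sham (-2.15 ± 0.51, edgeR adjusted p = 0.0151). Between MCAO contra and Sham 0% of genes and none of the 3 members were called (edgeR, 422 genes and 0 members at an unadjusted p under 0.05, and 0 genes with DESeq2).

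Of the ligands in OPC-like nuclei, *Fgf2* was too low for the test. With no filter beyond 1 UMI, *Fgf2* was called higher in MCAO ipsi than in Sham (6.30 ± 1.82, edgeR adjusted p = 0.0243). That size is poorly set because Sham had no UMI. It had 0 UMIs in both Sham libraries and mMCAO contra, 7 UMIs (32.6 CPM) in sMCAO contra, 5 (14.0 CPM) in mMCAO ipsi and 30 (50.3 CPM) in sMCAO ipsi. Over the pooled libraries, MCAO ipsi was at least 2.25-fold higher than Sham, a limit that covers the error of the Sham count only. It was 2.69-fold (95% Poisson interval 1.18 to 7.17) higher than MCAO contra, with counting error only. Both folds rested on sMCAO ipsi. Without it MCAO ipsi (14.0 CPM) lay under the limit of Sham (3 UMIs, 16.3 CPM) and at 1.02-fold (0.256 to 3.74) of MCAO contra. The absence in Sham also depended on the gate. Under the stricter gate Sham R had 1 UMI (30.1 CPM) and sMCAO contra 3 (22.4 CPM). In MCAO ipsi there were then 3 (15.4 CPM) with moderate and 20 (56.6 CPM) with severe infarction. Cycling OPC-like nuclei, those with UMIs of at least 3 genes of the cell cycle, numbered 74 in mMCAO ipsi and 72 in sMCAO ipsi, against 4, 1, 8 and 9 in the Sham and contra libraries. Cycling and other nuclei did not differ beyond their counting intervals in *Tgfa* (130 and 104 CPM against 128 and 112 CPM), *Fgfr1* (121 and 124 CPM against 90.7 and 147 CPM) or *Fgf2* in sMCAO ipsi (64.5 CPM, 34.3 to 110, against 43.1 CPM, 25.1 to 69.0).

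*Egfr* in OPC-like nuclei depended on how the class was drawn. With UMIs of the core markers *Pdgfra*, *Vcan*, *Neu4*, *C1ql1* or *Matn4* required, as throughout, there were 1, 1, 4, 10, 1 and 2 *Egfr* UMIs in Sham L, Sham R, mMCAO contra, sMCAO contra, mMCAO ipsi and sMCAO ipsi. Without that requirement the same markers gave 163, 141, 106, 134, 55.7 and 38.0 CPM, and *Egfr* was called lower in MCAO ipsi than in Sham (log2 fold change -1.83 ± 0.26, SE, edgeR adjusted p = 0.00137). Those *Egfr* UMIs came from 9 to 23 nuclei per library, in which the interneuron genes *Erbb4* (6883 to 21727 CPM) and *Gad1* (252 to 726 CPM) were abundant and the oligodendrocyte lineage gene *Sox10* lay between 0 and 63.1 CPM. *Pdgfra* lay there at 37.1 to 189 CPM and *Vcan* at 251 to 545 CPM. OPC-like nuclei with the core markers required held *Erbb4* too (2622 to 3971 CPM), with *Gad1* at 25.3 to 92.0 CPM and *Sox10* at 104 to 215 CPM. With the core markers required *Egfr* was too low for the test, and with no filter beyond 1 UMI it was called lower in MCAO ipsi than in MCAO contra (-3.03 ± 0.83, edgeR adjusted p = 0.0118). The wider gate also called *Fgf2* (3.85 ± 1.14, adjusted p = 0.0466) and *Fgfr1* (1.18 ± 0.33, adjusted p = 0.0384) higher in OPC-like nuclei of MCAO ipsi.

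**Figure D5:**
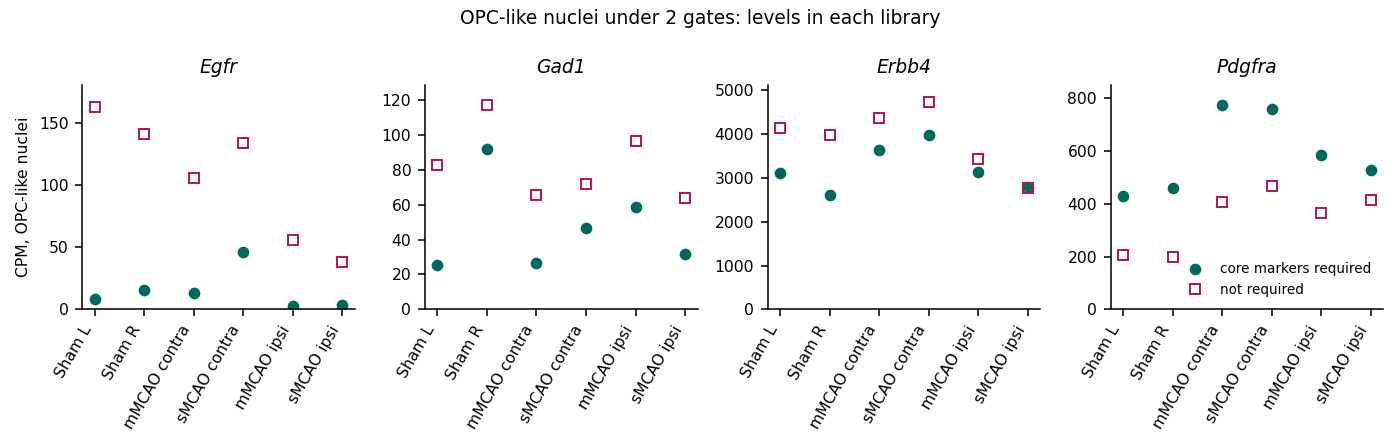
CPM of *Egfr*, of the interneuron genes *Gad1* and *Erbb4* and of the OPC gene *Pdgfra* in OPC-like nuclei of each library, with core markers required (filled circles) or not (open squares), on axes that start at 0. *Egfr* drops from 163 to 8.43 CPM in Sham L when core markers are required, while *Pdgfra* is higher in each library.

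Oligodendrocyte-like nuclei were the main carriers of *Fgfr2*, the FGF receptor gene known for its part in myelin growth. It lay at 660 and 602 CPM in Sham, 883 and 855 CPM in MCAO contra, and 877 and 904 CPM in MCAO ipsi, so that both hemispheres of the MCAO rats were above Sham, although the change did not reach the size or the p of a call (MCAO ipsi against Sham 0.48 ± 0.14, SE, n = 2 against 2, edgeR adjusted p = 0.0683). Free neuronal RNA was estimated here at 31.4% and 34.5% of UMIs in Sham. It was 15.4% and 18.8% in MCAO contra, and 12.5% and 4.64% in MCAO ipsi. In Sham it brought only 5.22 and 6.69 CPM of *Fgfr2*, so that it lowered the Sham levels most. Its part in the difference from Sham was not tested. *Fgfr1* lay at 21.5 and 21.8 CPM, 14.7 and 30.6 CPM, and 37.3 and 54.2 CPM in the same order of groups (1.09 ± 0.41, adjusted p = 0.143). *Tgfa* lay at 36.2 and 49.0, 43.5 and 36.1, and 37.3 and 59.8 CPM (0.28 ± 0.31). *Egfr* stayed under 33 CPM, with its highest value in Sham R (-1.21 ± 0.70, adjusted p = 0.355). None of these 4 tested members was called, beside 6.88% of the 9564 genes tested between MCAO ipsi and Sham. For MCAO ipsi against MCAO contra and for MCAO contra against Sham edgeR called 0% of genes (1397 and 899 genes at an unadjusted p under 0.05, and 74 and 1 with DESeq2). At an unadjusted p under 0.05 were *Fgfr1* and *Fgfr2* against Sham, *Fgfr1* against MCAO contra and *Fgfr2* between MCAO contra and Sham.

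Whether a member changed differently between glial classes was tested as an interaction, with both classes in 1 fit and the library as a block. Of the members, only *Fgfr2* between oligodendrocyte-like and OPC-like nuclei was called. Its log2 fold change of MCAO ipsi against Sham was 2.54 ± 0.68 higher in oligodendrocyte-like nuclei (SE, edgeR adjusted p = 0.0266), beside 2.91% of the 8524 genes called in this pair of classes. The OPC-like side rests on 35 UMIs in all, and the call was lost with a stricter gate (2.35, adjusted p = 0.0856) and without Sham L (2.48, adjusted p = 0.393), Sham R (2.49, adjusted p = 0.171), mMCAO contra (2.50, adjusted p = 0.0537) or sMCAO ipsi (2.21, adjusted p = 0.309). Between OPC-like and astrocyte-like nuclei 3.37% of 6641 genes were called, and between oligodendrocyte-like and astrocyte-like nuclei 4.03% of 10615 genes, without a member among them. *Egfr* came nearest in the second pair (1.98 lower in oligodendrocyte-like nuclei on the log2 scale, adjusted p = 0.0603), and *Hbegf* had adjusted p = 0.0664 in the first and 0.0633 in the second. A rise of *Hbegf*, *Fgf2* or *Egfr* particular to astrocyte-like nuclei was thus not shown. In simulated counts of OPC-like and astrocyte-like nuclei the interaction test recovered only 18.9% of 3-fold changes, so that members not called can still differ. For *Fgfr1* the log2 fold changes of the 3 glial classes were close to one another (differences -0.16 ± 0.56 and -0.12 ± 0.51 against astrocyte-like nuclei).

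Myeloid-like nuclei increased from 18 and 20 in Sham to 959 and 1560 in MCAO ipsi, and *Fgfr1* was found in them in every library. Since Sham L held under 20 nuclei, MCAO ipsi was compared with MCAO contra only, in the 4 MCAO libraries. *Fgfr1* lay at 104 and 212 CPM in MCAO contra and 119 and 99.8 CPM in MCAO ipsi (log2 fold change -0.61 ± 0.38, SE, n = 2 against 2, edgeR). *Tgfa* lay at 55.9 and 30.3 CPM in MCAO contra and 17.4 and 2.82 CPM in MCAO ipsi (-2.34 ± 0.95, adjusted p = 0.589), and *Fgfr2* at 79.9 and 30.3 CPM against 29.9 and 18.8 CPM (-1.36 ± 0.55, adjusted p = 0.589). None of the 4 tested members was called, and 0% of the 9516 genes (edgeR, 747 genes and 2 members at an unadjusted p under 0.05, and 0 genes with DESeq2). The 2 members were *Tgfa* and *Fgfr2*, and the estimated share of free neuronal RNA in this class fell from 24.4% and 35.4% in MCAO contra to 20.8% and 6.14% in MCAO ipsi. Its part in those values was not tested. The ligands *Fgf2* (9 and 18 UMIs in MCAO ipsi, 0 elsewhere) and *Hbegf* (4 and 9 UMIs) were rare. Split by their markers, microglia-like nuclei had more *Fgfr1* than macrophage-like nuclei in sMCAO ipsi (147 CPM, 123 to 176, against 59.5 CPM, 45.2 to 76.9) and in mMCAO ipsi (122 CPM, 98.8 to 149, against 70.0 CPM, 38.3 to 117, intervals that overlap).

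Vascular-like nuclei, 41 to 294 per library, were the class outside astrocytes in which *Hbegf* was found at some level, at 53.7 and 0 CPM in Sham, 54.8 and 43.1 CPM in MCAO contra, and 54.8 and 25.5 CPM in MCAO ipsi, on 0 to 12 UMIs. *Tgfa* lay at 31.8 to 134 CPM and *Fgfr1* at 0 to 134 CPM, both highest in Sham L, and *Fgfr3* had no UMI in any library. No member passed the filter on low counts in this class. Among its 3148 tested genes edgeR called 0% in each of the 3 comparisons (471 genes at an unadjusted p under 0.05 against Sham, 229 for MCAO ipsi against MCAO contra and 100 for MCAO contra against Sham, with 5, 0 and 0 called by DESeq2).

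Fibroblast-like nuclei were too few for a test (6 and 3 in Sham to 146 in sMCAO ipsi) but had high levels of several members. *Egfr* had 39 UMIs in sMCAO contra (1169.8 CPM) and 144 UMIs in sMCAO ipsi (441 CPM), *Fgfr1* 104 UMIs (319 CPM) and *Fgf1* 78 UMIs (239 CPM) in sMCAO ipsi. *Fgf1* was found in 30.8% of the fibroblast-like nuclei of sMCAO ipsi, against 0.292% of its oligodendrocyte-like nuclei. *Tgfa* had no UMI in fibroblast-like nuclei of any library. Ependymal-like nuclei, which line the ventricles and numbered 10 to 88, carried *Fgfr2* at 119 to 267 CPM. *Fgfr1* lay there at 0 and 0 CPM in Sham, 135 and 262 CPM in MCAO contra, and 65.0 and 163 CPM (4 and 29 UMIs) in MCAO ipsi. The Sham values rest on 25 and 10 nuclei with 18716 and 7853 UMIs of all genes, too few to show an absence.

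In neurons most members were at low levels and the called changes against Sham were falls. Of glutamatergic neuron-like nuclei 2 of 8 members were called lower in MCAO ipsi than in Sham, beside 6.58% of the 14643 genes called. *Tgfa* lay at 4.52 and 4.35 CPM in Sham, 3.81 and 4.19 CPM in MCAO contra, and 2.72 and 2.66 CPM in MCAO ipsi (log2 fold change -0.82 ± 0.21, SE, n = 2 against 2, edgeR adjusted p = 0.0406). *Fgfr3* lay at 3.51 and 1.63 CPM, 2.24 and 1.20 CPM, and 0.62 and 0.197 CPM (-2.57 ± 0.59, edgeR adjusted p = 0.0276), on 13 and 2 UMIs in MCAO ipsi. In both cases the MCAO ipsi libraries were the lowest of the 6. Free RNA of glia in neuronal nuclei was not estimated. Of 16 alternatives, 8 kept the call of *Tgfa* and 10 that of *Fgfr3*. The call of *Tgfa* was lost without either Sham library (Sham L -0.78, adjusted p = 0.275, and Sham R -0.86, adjusted p = 0.156) and without either contra library (both -0.83, adjusted p = 0.0816 and 0.0815), and that of *Fgfr3* without Sham L (-1.88, adjusted p = 0.279), Sham R (-3.01, adjusted p = 0.0699), mMCAO contra (-2.58, adjusted p = 0.0585) or sMCAO contra (-2.58, adjusted p = 0.0549). None of the 8 members was called against MCAO contra (3.52% of genes were, with *Fgfr3* and *Tgfa* at an unadjusted p under 0.05 and 0 members by DESeq2) or between MCAO contra and Sham (0.041% of genes, 0 members at an unadjusted p under 0.05 and 0 by DESeq2).

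In medium spiny neuron-like nuclei, the projection neurons of the striatum, *Egfr* and *Fgfr2* fell and *Hbegf* rose. Against Sham 2 of 7 tested members were called, beside 5.82% of the 12381 genes. *Egfr* lay at 15.7 and 20.2 CPM in Sham, 13.2 and 17.4 CPM in MCAO contra, and 8.45 and 8.65 CPM in MCAO ipsi, the lowest of the 6 (log2 fold change against Sham -1.13 ± 0.23, SE, n = 2 against 2, edgeR adjusted p = 0.00905). The call was kept in 15 of 16 alternatives and lost without Sham R (-0.95). In this and the other neuronal classes the subtraction of free neuronal RNA changes no count. That alternative therefore repeats the main fit. *Fgfr2* lay at 20.4 and 19.9 CPM, 20.1 and 20.9 CPM, and 14.8 and 12.4 CPM (-0.63 ± 0.17, adjusted p = 0.0387). This call was kept in 6 of 16 alternatives, and the values without 1 library were -0.60 without Sham L (adjusted p = 0.22), -0.66 without Sham R (adjusted p = 0.126), -0.64 without either contra library (adjusted p = 0.0543 and 0.0548) and -0.50 without sMCAO ipsi (adjusted p = 0.169).

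*Hbegf* in medium spiny neuron-like nuclei lay at 1.94 and 3.13 CPM in Sham, 1.87 and 1.17 CPM in MCAO contra, and 4.49 and 6.80 CPM in MCAO ipsi, on 5 to 22 UMIs. It was called higher than in MCAO contra (log2 fold change 1.79 ± 0.44, SE, n = 2 against 2, edgeR adjusted p = 0.0351), beside 3.19% of genes, and it was the only one of the 7 members called there. Of 16 alternatives, 8 kept this call, and DESeq2 called none of the 7 members in this comparison. The call was lost under the stricter gate (0.86, adjusted p = 0.417) and without Sham L (1.79, adjusted p = 0.0738), Sham R (1.80, adjusted p = 0.0766), mMCAO contra (2.21, adjusted p = 0.119), sMCAO contra (1.54, adjusted p = 0.179) or sMCAO ipsi (1.5, adjusted p = 0.136). Between MCAO contra and Sham none of the 7 was called (0.21% of genes, 0 members at an unadjusted p under 0.05 and 0 by DESeq2).

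Other GABAergic neuron-like nuclei, which include interneurons, carried *Egfr* at 149 and 137 CPM in Sham, 161 and 146 CPM in MCAO contra, and 131 and 98.7 CPM in MCAO ipsi. Both MCAO ipsi libraries were the lowest, but the change was not called (log2 fold change against Sham -0.38 ± 0.15, SE, n = 2 against 2, edgeR adjusted p = 0.218). Without mMCAO ipsi, which leaves 1 library in the group, the log2 fold change against Sham was -0.66. Under the stricter gate the order was another, with 111 and 67.3 CPM in Sham, 149 and 125 CPM in MCAO contra, and 88.8 and 87.8 CPM in MCAO ipsi, so that Sham R, on 20 UMIs, was the lowest. A *Egfr* UMI was found in 17.9% to 21.3% of these nuclei, and in 5.49% to 7.24% after thinning to 500 UMIs. None of the 7 tested members was called against Sham (0.976% of 11987 genes), against MCAO contra (0.0751%) or between MCAO contra and Sham (0%, with 1340 genes at an unadjusted p under 0.05 and 9 called by DESeq2). At an unadjusted p under 0.05 was *Egfr*, in both comparisons of MCAO ipsi, and DESeq2 called no member.

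Over the 7 tested classes, 35 of the 56 pairs of member and class could be tested between MCAO ipsi and Sham, and 4 were called higher, all in astrocyte-like nuclei, and 4 lower, all in neurons. Of all genes tested, 0% (vascular-like) to 16% (astrocyte-like nuclei) were called per class in this comparison. Against MCAO contra, with myeloid-like nuclei added, 39 of 64 pairs were tested and 3 were called, all higher, beside 0% to 14.3% of all genes per class. Between MCAO contra and Sham 0 of 35 pairs were called by edgeR or DESeq2, and 2 were at an unadjusted p under 0.05. There edgeR called 0% to 0.21% of all genes per class. Since contra and ipsi libraries came from the same rats, the rat pool was also used as a block for MCAO ipsi against MCAO contra, which added a fall of *Fgfr3* in glutamatergic neuron-like nuclei (-1.97, edgeR adjusted p = 0.0455). These counts do not show that members changed more often than other genes, since a member that is absent in Sham can pass the filter only where it is high.

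Moderate and severe infarction were represented by 1 library each and were set side by side without a test, as the level in sMCAO ipsi divided by that in mMCAO ipsi with an exact 95% Poisson interval that holds counting error only. In astrocyte-like nuclei the ratio was 2.25 (1.51 to 3.46) for *Hbegf*, 1.37 (1.09 to 1.75) for *Fgf2* and 1.41 (1.09 to 1.84) for *Fgfr1*. It was 0.946 (0.797 to 1.13) for *Egfr*, 1.05 (0.882 to 1.27) for *Fgfr2* and 1.31 (0.926 to 1.87) for *Fgfr3*, whose intervals include 1. The ligands *Hbegf* and *Fgf2* and the receptor *Fgfr1* were thus higher in the severe library beyond counting error. In OPC-like nuclei *Fgf2* had a ratio of 3.61 (1.38 to 11.9), *Fgfr1* of 1.39 (0.926 to 2.11) and *Tgfa* of 0.849, and in oligodendrocyte-like nuclei *Tgfa* had a ratio of 1.60 (1.09 to 2.41) and *Fgfr2* of 1.03. In myeloid-like nuclei *Tgfa* was lower in the severe library (0.162, 0.0535 to 0.415). In glutamatergic neuron-like nuclei, whose median depth was 8745 UMIs in sMCAO ipsi and 4961 in mMCAO ipsi, *Fgf1* (2.89, 2.13 to 3.93), *Fgfr1* (1.91, 1.52 to 2.39) and *Fgfr2* (1.83, 1.5 to 2.23) were higher. *Egfr* in other GABAergic neuron-like nuclei was lower (0.754, 0.655 to 0.866), but not under the stricter gate (0.989).

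The rest of the pathway was followed through lists of other ligands, receptors, proteoglycans, signalling proteins, inhibitors and targets, in astrocyte-like, OPC-like and oligodendrocyte-like nuclei and for MCAO ipsi against Sham. None of the 14 other secreted FGF ligands found in the tables was abundant enough to be tested in astrocyte-like or OPC-like nuclei, and 1 was tested and not called in oligodendrocyte-like nuclei. The FGF homologous factors, which resemble FGFs but stay inside neurons at sodium channels, were lower. In astrocyte-like nuclei 2 of 3 tested were called lower, in OPC-like nuclei 3 of 3 and in oligodendrocyte-like nuclei 2 of 3. Of all genes, 16%, 6.74% and 6.88% were called in these classes in either direction. With free neuronal RNA subtracted 1 of these 7 calls remained. *Fgf14* had the largest fall in astrocyte-like nuclei, from 1592 and 1288 CPM in Sham over 936 and 909 CPM in MCAO contra to 420.1 and 111 CPM in MCAO ipsi (log2 fold change -2.52 ± 0.43, SE, n = 2 against 2, edgeR adjusted p = 0.00186). This order is that of the share of free neuronal RNA given above, and the call was kept in all 16 alternatives, the subtraction of that RNA among them. Its part in the fall was otherwise not tested.

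Genes that act around the receptors were counted in astrocyte-like nuclei, where 16% of all genes tested were called in either direction. Among heparan sulphate proteoglycans, which hold FGFs at the cell surface, 2 of 4 tested were called higher (list median 0.97 on the log2 scale, against 0.04 for all genes). Against MCAO contra 1 of the 4 was called higher, with a list median of 0.23 against 0.02 for all genes. *Gpc6*, a glypican, lay at 778 and 726 CPM in Sham, 853 and 787 CPM in MCAO contra, and 1578 and 1842 CPM in MCAO ipsi (1.16 ± 0.18, SE, n = 2 against 2, edgeR adjusted p = 0.0012), a call kept in all 16 alternatives. *Sdc4* was the other, at 57.4 and 27.2 CPM in Sham, 102 and 91.8 CPM in MCAO contra, and 86.1 and 179 CPM in MCAO ipsi (1.55 ± 0.47 against Sham, adjusted p = 0.0385). Both MCAO contra libraries were thus above mMCAO ipsi. The call of *Sdc4* was kept in only 7 of 16 alternatives. It was lost without Sham L (2.34), Sham R (1.15), mMCAO contra (1.53) or sMCAO ipsi (0.89). Of the feedback inhibitors, which dampen receptor signalling, 2 of 11 were called higher (list median 0.36), a share near that of all genes. *Errfi1*, whose product binds and inhibits the EGF receptor, lay at 20.9 and 27.2 CPM in Sham, 21.5 and 21.9 CPM in MCAO contra, and 65.0 and 196 CPM in MCAO ipsi (2.52 ± 0.66, adjusted p = 0.0191). The call of *Errfi1* was lost without Sham L (2.33, adjusted p = 0.225), Sham R (2.60, adjusted p = 0.0778) or sMCAO ipsi (1.46, adjusted p = 0.116). *Spred3*, an inhibitor of the Ras-MAPK cascade, lay at 15.7 and 18.1, 10.8 and 13.1, and 66.8 and 106 CPM in the same order (2.37 ± 0.52, adjusted p = 0.00761), and was not called without Sham L (2.29, adjusted p = 0.146) or sMCAO ipsi (1.98, adjusted p = 0.0632). The adaptor *Gab1* was called higher (1.04 ± 0.27, adjusted p = 0.0182) as 1 of 13 in its list. It lay at 110 and 136 CPM in Sham, 170 and 254 CPM in MCAO contra, and 257 and 248 CPM in MCAO ipsi. None of the 13 was called against MCAO contra. The call of *Gab1* against Sham was lost without Sham L (0.91) or Sham R (1.11). The neuregulin receptor *Erbb4* was called lower (-1.25 ± 0.26, adjusted p = 0.00612), but not without Sham L (-0.75, adjusted p = 0.221) or with free neuronal RNA subtracted (-1.09, adjusted p = 0.0663). Of 16 alternatives, 12 kept the call of *Errfi1*, 9 that of *Gab1* and 14 that of *Erbb4*, and 12 of 15 kept that of *Spred3*. None of 2 shedding genes, 1 other EGF receptor ligand and 3 transcriptional targets was called.

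In OPC-like nuclei the called genes of these lists were, beside the FGF homologous factors, the inhibitor *Spred2*, the kinase *Braf* and the cell cycle gene *Ccnd1*, a target of mitogen signalling. Of all genes tested in this class, 6.74% were called in either direction. *Ccnd1* lay at 16.9 and 15.3 CPM in Sham, 73.8 and 60.5 CPM in MCAO contra, and 106 and 132 CPM in MCAO ipsi (log2 fold change against Sham 2.84 ± 0.57, SE, n = 2 against 2, edgeR adjusted p = 0.00246), as 1 of 4 targets tested. The Sham levels rest on 2 and 1 UMIs, and MCAO contra against Sham was not called (2.08 ± 0.66, adjusted p = 0.383), as no gene was in this class. It was not called with the stricter gate (1.21, adjusted p = 0.46) or without Sham L (3.00, adjusted p = 0.133). *Spred2* was called higher (1.25 ± 0.37, adjusted p = 0.0369) as 1 of 8 inhibitors, and *Braf* lower (-0.89 ± 0.25, adjusted p = 0.0255) as 1 of 11 signalling genes. Of 16 alternatives, 9 kept the call of *Spred2* and 6 that of *Braf*. Without Sham L, Sham R or sMCAO ipsi neither was called (*Spred2* 0.95, 1.52 and 1.24, with adjusted p = 0.43, 0.11 and 0.0727, and *Braf* -0.73, -0.94 and -0.75, with adjusted p = 0.395, 0.114 and 0.152). In oligodendrocyte-like nuclei 2 of 10 inhibitors were called higher, beside 6.88% of all genes called in either direction. *Spry2* lay at 3.92 and 8.17 CPM in Sham, 7.34 and 6.31 CPM in MCAO contra, and 17.6 and 68.2 CPM in MCAO ipsi (3.11 ± 0.78, adjusted p = 0.0478), and *Spred3* had a log2 fold change of 2.48 ± 0.60 (adjusted p = 0.0429). Of 15 alternatives, 6 kept the call of *Spry2* and 7 that of *Spred3*. *Spry2* was no longer called without Sham L (2.49, adjusted p = 0.358), Sham R (3.48, adjusted p = 0.211), mMCAO contra (3.08, adjusted p = 0.0967), sMCAO contra (3.09, adjusted p = 0.0965) or sMCAO ipsi (1.74, adjusted p = 0.19), and *Spred3* without the same 5 libraries had 1.48 to 2.54 (adjusted p = 0.0895 to 0.306). *Gpc6* ran against its direction in astrocyte-like nuclei and was called lower (-1.34 ± 0.24, adjusted p = 0.02, kept in 9 of 16 alternatives), 1 of 5 proteoglycans tested. This direction turned with free neuronal RNA subtracted (7.76, adjusted p = 0.23), and the call was lost without any of Sham L (-1.41, adjusted p = 0.153), Sham R (-1.26, adjusted p = 0.174), mMCAO contra (-1.33, adjusted p = 0.059) or sMCAO contra (-1.33, adjusted p = 0.0576).

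The genes whose levels followed a member most closely were found over 46 sums of class and library, as Pearson's r of log2(CPM + 5), among 10039 genes with a mean of at least 10 CPM. These points share libraries, depth and the large differences between classes, so that r describes the distribution over classes. *Fgf2* was closest to the astrocyte genes *Aqp4* (r = 0.917), *Slc14a1* (0.901) and *Gldc* (0.881), and *Fgfr3* to *Slc15a2* (0.963), the unnamed gene ENSRNOG00000062419 (0.959) and *Cldn10* (0.954). *Fgfr2* was closest to *Clmn* (0.934), *Fnbp1* (0.928) and *Gpr37* (0.926), and *Tgfa* to *Mpzl1* (0.883), the myelin gene *Pllp* (0.862) and *Sh3bp4* (0.837). *Hbegf* was closest to *Hspb1*, which encodes a small heat shock protein (0.871), followed by AC128848.1 (0.827) and *Dysf* (0.824). *Fgfr1* was closest to *Akna* (0.894), *Lrp4* (0.870) and *Cdk5rap2* (0.859), and *Egfr* to *Plch1* (0.856), *Frem1* (0.849) and *Moxd1* (0.846). *Fgf1*, which was low in the tested classes, had no close neighbour among these points, with ENSRNOG00000067700 (0.577), *Hdac3* (0.573) and *Tcea2* (0.545). Fibroblast-like nuclei, in which it reached 239 CPM in sMCAO ipsi, were not among the points.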

How the data were processed

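Nuclei of pooled coronal hemispheres were counted in 6 libraries made with a droplet kit of 10x Genomics. The values are raw UMI counts per gene and nucleus, deposited by the authors after Cell Ranger 7.0.0 had aligned reads, intronic reads included, to mRatBN7.2. The study's later removal of free RNA and doublets is not part of these counts. Here nuclei with at least 500 UMIs, 250 to 5000 genes and at most 5% mitochondrial UMIs were kept and put into 10 classes by marker UMIs per 10000 (from 4 for other GABAergic neuron-like to 100 for astrocyte-like nuclei) of at least 3 markers (2 for neurons). Nuclei meeting 2 classes were left out, and no doublet caller was run. The requirement for core markers in OPC-like nuclei was added after the levels of the members had been seen, and *Sox6*, *Nxph1* and *Adarb2* were dropped from the gates. Sums of UMIs over the nuclei of a class were made for classes with at least 20 nuclei in each library. After filterByExpr, genes were tested in R 4.3.3 with edgeR 4.0.16 (TMM, quasi-likelihood F test, means of 3 groups of 2 libraries, 3 residual degrees of freedom, Benjamini-Hochberg adjustment over all genes of a class and comparison). SE is the log2 fold change divided by the root of F. DESeq2 1.42.0, other gates, filters and samples, thinning, subtraction of free neuronal RNA and a block for the rat pool were alternatives. The subtraction was made in non-neuronal classes only. Pooled folds without 1 MCAO ipsi library were added after the data had been seen. Intervals and limits of 3 counts cover counting error only. Tests were checked on simulated counts with 3-fold changes in MCAO ipsi. The interaction test (OPC-like and astrocyte-like nuclei) recovered 18.9% of them. The test against Sham recovered 47.7% in vascular-like, 63.2% in OPC-like, 63.8% in astrocyte-like and 77.1% in oligodendrocyte-like nuclei. In neurons it recovered 89.8% to 94.9%. Levels by state, severity and shares were not tested. Myeloid-like nuclei were tested in the 4 MCAO libraries only, a departure from the planned fit of all 6. Contra and ipsi libraries of the same rats are paired by design, and their deviations from the group means correlated between -0.113 and 0.102 per class. The members, lists and marker genes were chosen with earlier results of these data known. All 8 members are named, and of the pathway lists the called genes with the largest change, up to 4 per direction, list and class. Scripts used Python 3.11.15, numpy 2.4.6, scipy 1.17.1 and pandas 2.3.3.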

Additional observations from a re-analysis of the deposited data

Results flagged for a closer look

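The change of *Fgfr2* between MCAO ipsi and Sham differed between glial classes by a test of the difference itself. Its log2 fold change was 2.54 higher in oligodendrocyte-like than in OPC-like nuclei (SE 0.68, edgeR adjusted p = 0.0266). Levels were 660 and 602 CPM in Sham against 877 and 904 CPM in MCAO ipsi in oligodendrocyte-like nuclei, and 50.6 and 46.0 CPM against 14.0 and 10.1 CPM in OPC-like nuclei, where each library held 3 to 11 UMIs. The difference kept its direction in the 10 alternatives run and its call in 3 of them, and it was not called with free neuronal RNA subtracted (2.60, adjusted p = 0.295) or with libraries thinned to the same UMIs (2.66, adjusted p = 0.162).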

How the results depend on the processing

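Member calls of MCAO ipsi against Sham, 8 in all, numbered 4 with the stricter gate, 4 with DESeq2, 5 with only the 4 libraries of both groups and 3 with libraries thinned to equal UMIs, and ran from 1 (without Sham L) to 11 (without mMCAO ipsi) when 1 library was left out (2 without Sham R, 5 without either contra library, 6 without sMCAO ipsi). Calls of MCAO ipsi against MCAO contra, 3 in all, numbered 11 with no filter beyond 1 UMI and ran from 1 (without mMCAO contra) to 8 (without mMCAO ipsi). Calls of MCAO contra against Sham stayed at 0 in every alternative, leaving out 1 library among them (0 to 0). With the replicate block of the rat pool, MCAO ipsi against MCAO contra gave 4 calls, with *Fgfr3* in glutamatergic neuron-like nuclei added, and no call was lost. Some alternatives added calls against Sham. With no filter beyond 1 UMI, edgeR called *Fgf2* in OPC-like nuclei higher. It also called *Fgfr1* higher in oligodendrocyte-like (1.11, adjusted p = 0.0196) and *Fgf1* in glutamatergic neuron-like nuclei (0.77, adjusted p = 0.00996). Without the core markers, *Fgf2* and *Fgfr1* were called higher and *Egfr* lower in OPC-like nuclei. Of the alternative values of called members, 127 kept the call, 47 kept only the direction and 0 reversed. The 127 include the subtraction of free neuronal RNA in neuronal classes, which repeats the main fit there. Among pathway genes, *Gpc6* in oligodendrocyte-like nuclei reversed with free neuronal RNA subtracted (7.76, adjusted p = 0.23). The causes were not tested. The counts of member calls were not set beside the share of all genes called under the same alternative. A higher or lower count can therefore reflect how many genes that alternative calls in all. Low depth limits *Fgf1*, *Hbegf* and *Fgf2* outside astrocyte-like nuclei, and 2 libraries per group limit every test.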
